A study of Mus musculus with 18 samples.

Results

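The 82 genes described here code for proteins of the cytosolic ribosome or for close relatives of them. They were taken by name from the 20807 autosomal protein-coding genes of the GENCODE M21 annotation of mouse build GRCm38. A gene was a member when its symbol was Rpl (large subunit, 50 genes) or Rps (small subunit, 32 genes) followed by a number. Rpl10l, the kinases named Rps6k and the binding protein Rps19bp1 were left out. Of the members, 69 had a standard symbol, and 13 had the symbol of a paralog (Rpl22l1, Rps27l, Rpl36al, Rpl39l, Rpl3l, Rpl7l1) or of a processed retrocopy annotated as protein-coding (Rpl10-ps3, Rps27rt, Rpl9-ps1, Rpl36a-ps1, Rpl36-ps4, Rpl9-ps6, Rps12-ps3). No measured value entered this rule, but the family was chosen with earlier results of these data known.

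The assay was enhanced reduced representation bisulfite sequencing (eRRBS). In it, restriction fragments are treated with bisulfite and a cytosine that is still read as cytosine is scored as methylated. All 18 libraries came from mouse embryonic stem cells whose own Dnmt1 gene was knocked out and which carried a pPyCAGIP vector, under puromycin selection, in medium with serum and leukemia inhibitory factor on gelatin. The vector gave wild-type DNMT1 (WT) or DNMT1 with tryptophan replaced by alanine, as W796A, W465A, W464A/W465A, W465A/W796A or W464A/W465A/W796A. Each of these 6 groups had 3 libraries labelled as biological replicates. Several stable lines were made per group, and whether the replicates are separate lines is not given in the sources used here. P-values therefore set a group difference against the spread between these libraries only, estimated over all 6 groups together. Knockout cells with an empty vector were not used here. A level is the percentage of methylated reads among all reads, summed over the CpGs of a region that had at least 1 read in each of the 18 libraries. A promoter is the stretch of 500 bp on either side of the transcript start, and the gene body is the rest of the annotated gene. Where a gene is annotated with further starts upstream of the one used, its body also holds the stretch between them, which was so for 269 of the 2164 body CpGs of members, in 6 genes.

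DNMT1 copies CpG methylation onto the new strand after DNA replication. Its RFTS domain, which holds the paired tryptophans, binds histone H3 marks laid down before copying, and its BAH1 domain, which holds the other one, binds a methyl mark of histone H4. Ribosomal protein genes are among the most active genes of dividing cells. They are short, start at a pyrimidine tract within a CpG island, and are normally free of promoter methylation, while the bodies of active genes usually carry methylation beyond the island. Mammalian genomes also hold many retrocopies of them, and most of those are silent.

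The usable CpGs covered the promoter of nearly every member. There were 2884 of them in 81 promoters and 2164 in 75 gene bodies. At least 3 were required for a test, which 78 promoters and 71 bodies had. The members had a median gene length of 3226.5 bp, against 17629 bp for all autosomal protein-coding genes, and 4 were longer than 10000 bp in this annotation (Rps14, Rpl11, Rpl3, Rps15a). Their promoters had a median of 65 reference CpGs, against 45 for all genes.

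These 4 promoter windows from RefSeq (GRCm38.p6, 250 bases before to 50 after the start, gene strand) show the kinds of promoter in the family, with CpGs in capitals. Rps3a1 and Rpl10a are standard small and large subunit genes with island promoters, Rpl7l1 is a paralog with the same low methylation, and Rpl39l is a paralog whose promoter was methylated. The windows are at chr3:86142619-86142918 (minus strand), chr17:28328315-28328614 (plus), chr17:46782607-46782906 (minus) and chr16:10169978-10170277 (plus).
Rps3a1: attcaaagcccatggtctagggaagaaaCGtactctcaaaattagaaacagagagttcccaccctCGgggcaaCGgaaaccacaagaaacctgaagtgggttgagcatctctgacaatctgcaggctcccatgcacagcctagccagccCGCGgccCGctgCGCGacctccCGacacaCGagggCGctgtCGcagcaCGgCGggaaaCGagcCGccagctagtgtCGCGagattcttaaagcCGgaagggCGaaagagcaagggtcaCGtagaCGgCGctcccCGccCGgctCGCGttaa
Rpl10a: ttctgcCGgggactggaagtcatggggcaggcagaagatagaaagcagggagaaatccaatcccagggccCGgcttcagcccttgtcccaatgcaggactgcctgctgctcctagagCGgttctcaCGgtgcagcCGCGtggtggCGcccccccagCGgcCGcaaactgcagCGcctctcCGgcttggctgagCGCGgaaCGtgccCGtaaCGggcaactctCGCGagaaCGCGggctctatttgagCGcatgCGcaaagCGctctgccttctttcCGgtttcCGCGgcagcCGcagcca
Rpl7l1: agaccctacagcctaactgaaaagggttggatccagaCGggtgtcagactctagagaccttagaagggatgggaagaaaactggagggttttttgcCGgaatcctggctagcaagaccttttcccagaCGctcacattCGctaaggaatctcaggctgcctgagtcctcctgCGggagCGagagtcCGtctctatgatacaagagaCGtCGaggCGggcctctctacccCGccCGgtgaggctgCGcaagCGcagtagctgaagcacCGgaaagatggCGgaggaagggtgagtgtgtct
Rpl39l: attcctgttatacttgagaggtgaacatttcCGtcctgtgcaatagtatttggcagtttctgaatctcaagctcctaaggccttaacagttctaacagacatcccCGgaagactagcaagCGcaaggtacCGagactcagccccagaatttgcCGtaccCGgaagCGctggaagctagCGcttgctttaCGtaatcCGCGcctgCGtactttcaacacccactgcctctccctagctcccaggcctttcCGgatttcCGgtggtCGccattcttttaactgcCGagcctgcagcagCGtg
The Rps3a1 window holds 27 CpGs, of which 21 were usable, and its level in WT was 0.452% ± 0.399 (SD, n = 3 for this and all following group values). The Rpl10a window also holds 27 CpGs, 23 of them usable, at 0.252% ± 0.221. Rpl7l1 has 16 CpGs, 12 usable, at 0.815% ± 0.197. Rpl39l has 17 CpGs, 10 usable, and its level was 52.3% ± 13.1 in WT, 10.3% ± 8.74 in W465A and 36.4% ± 15.5 in W465A/W796A. The Rpl39l and Rpl7l1 windows thus hold nearly the same number of CpGs, with high methylation in the first and almost none in the second. Over the 500 bp on either side of the start they differ more, with 31 reference CpGs at Rpl39l and 46 at Rpl7l1.

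Such windows were found for 57 members, 50 with a standard symbol and 7 paralogs or retrocopies. The standard windows had a median of 21.5 CpGs, against 7 over the 27025 genes of the table. The letters CCGGAAG, the core bound by ETS factors, stood on either strand in 38.0% of the standard windows and in 9.12% of all windows. The E-box CACGTG was in 10% against 7.24%, and the TATA letters TATAAA in 4% against 14.2%. A longer palindrome bound by BANP was also counted, in 12% against 0.496%, and a longer YY1 motif, in 0 of 50 against 0.699%. These are matches of letters in a window, on both strands, and no more. Every CCGGAAG holds the MspI site CCGG. Of the 135 CpGs inside CCGG in the member windows none was usable, against 62.8% of the other 1076. The CpGs of CCGGAAG were thus not measured.

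Library totals ran from 59776439 to 138978763 calls. WT replicate 2 was the deepest library and WT replicate 3 the shallowest. Reads carry no molecular identifiers, so PCR copies cannot be told from molecules and precision was judged from the replicates. Of 6 pluripotency genes, Sox2, Klf4 and Pou5f1 had promoter levels under 1% in WT, Esrrb had 2.26%, Nanog 4.32%, and Zfp42, with 2 CpGs, 23.8%. Expression was not analysed here. Over all other autosomal protein-coding genes, the summed gene-body level was 59.4% ± 7.40 in WT, 58.9% ± 11.1 in W796A, 25.6% ± 5.41 in W465A and 43.6% ± 3.53 in W465A/W796A.

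The promoters of the standard ribosomal protein genes were almost free of methylation in every group. Over 2584 CpGs in 69 genes, the summed level was 0.343%, 0.458% and 0.323% in the 3 WT libraries, a mean of 0.374% ± 0.0728. W796A had 0.466% ± 0.0858, W465A 0.264% ± 0.0666 and W464A/W465A 0.313% ± 0.0739. With W465A/W796A the level was 0.307% ± 0.0555, and with W464A/W465A/W796A it was 0.255% ± 0.0168. The libraries of W465A (0.191% to 0.322%) all lay below those of WT, the nearest pair being 0.322% and 0.323%. Large subunit genes had 0.402% ± 0.105 and small subunit genes 0.339% ± 0.0444 in WT, so the subunits overlapped. In 65 of the 69 genes the mean WT level was under 1%. The highest mean WT level was that of Rps27, which codes for a zinc finger protein of the small subunit, at 2.53% ± 4.37 over 3 CpGs, and this came from 1 library (0%, 7.58% and 0%). Of the 2584 CpGs, 84.8% had no methylated read in any WT library. The bisulfite conversion rate is not given in the sources used here, and its part in these low levels was not tested.

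Methylated CpGs in the standard promoters sat mostly at the upstream edge of the window. Only 15 CpGs, in 10 genes, had a mean WT level of at least 20%. Those of the genes other than Rpl18, among them Rpl6, Rpl8, Rpl5, Rps15, Rpl26, Rps10, Rpl13 and Rpl10a lay between -495 and -272 bp from the start. The other 3 lay 198, 235 and 272 bp downstream of the start of Rpl18, at 34.3%, 28.3% and 24.8% in WT and at 0% in all 3 libraries of W464A/W465A. These values rest on few reads: each of the 15 CpGs except that of Rpl13 had a library with 5 reads or fewer.

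The exceptions were paralogs and retrocopies. Of the 12 with a usable promoter CpG, 7 had a mean WT level above 40%. Rpl9-ps6 and Rps27rt had 1 usable CpG each, at 93.9% ± 10.5 and 84.1% ± 15.1, and were not tested. The other 5 were Rpl10-ps3, Rpl36a-ps1, Rps12-ps3, Rpl39l and Rpl3l. By contrast, Rpl22l1, Rps27l, Rpl36al and Rpl7l1 were under 1% in WT, and the single CpG of Rpl36-ps4, read 1 to 10 times per library, had no methylated read. Around the start of a retrocopy the downstream side of the window is the copied exon itself. Reads of near-identical copies may be placed wrongly, and the levels of retrocopies are uncertain to that extent.

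Rpl10-ps3 is a copy of the X-linked Rpl10, at chr9:50344201-50344968. Its promoter had 9 usable CpGs with 18 to 108 reads per library. The level was 68.0%, 93.5% and 87.0% in WT, 79.3%, 95.3% and 88.4% in W796A, and 75%, 85.7% and 78.4% in W465A/W796A. It was 54.3%, 30.5% and 52.4% in W465A, 37.3%, 27.9% and 33.3% in W464A/W465A, and 25.8%, 36.1% and 27.1% in W464A/W465A/W796A. All 9 libraries of these last groups were below all 9 of the first.

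Rpl36a-ps1, a copy of the X-linked Rpl36a at chr14:98993870-98994318, had 5 usable CpGs with 14 to 81 reads per library. Its WT libraries had 64.3%, 72.8% and 67.6%, those of W465A 37.9%, 29.4% and 18.9%, and those of W465A/W796A 53.8%, 35.0% and 59.5%. The last group reached from the W465A range to just below the WT range. Rps12-ps3, at chr19:59322290-59322783, had 16 usable CpGs with 16 to 247 reads per library. It was the only promoter of the family that passed the test between W465A/W796A and W465A. Its level was 45.5%, 66.7% and 57.7% in WT, 23.9%, 2.08% and 22.0% in W465A, and 82.4%, 42.9% and 82.3% in W465A/W796A. The W465A/W796A values lay on both sides of WT and all above W465A (adjusted p = 0.029), a call that did not hold without W465A replicate 2 (adjusted p = 0.141) or 3 (0.176), or without W465A/W796A replicate 1 (0.215) or 3 (0.0860).

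Rpl39l, a relative of the X-linked Rpl39 that is used mainly in male germ cells, lies at chr16:10170226-10174911. Its promoter had 16 usable CpGs and 142 to 437 reads per library, the deepest of the methylated ones. The level was 50%, 61.3% and 36.6% in WT, 26.0%, 64.4% and 48.6% in W796A, 10.3%, 11.0% and 1.17% in W465A, and 50.6%, 15.5% and 44.6% in W465A/W796A. The W465A libraries were all below WT, and the W465A/W796A libraries ran from just above W465A to just above the WT mean. Rpl3l, the muscle form of Rpl3, lies at chr17:24727820-24736143 and had 5 usable CpGs with 12 to 57 reads per library. It had 16.7%, 66.7% and 62.9% in WT, 8.33%, 7.41% and 6.38% in W465A and 35.7%, 16.7% and 28.6% in W465A/W796A.

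**Figure D1:**
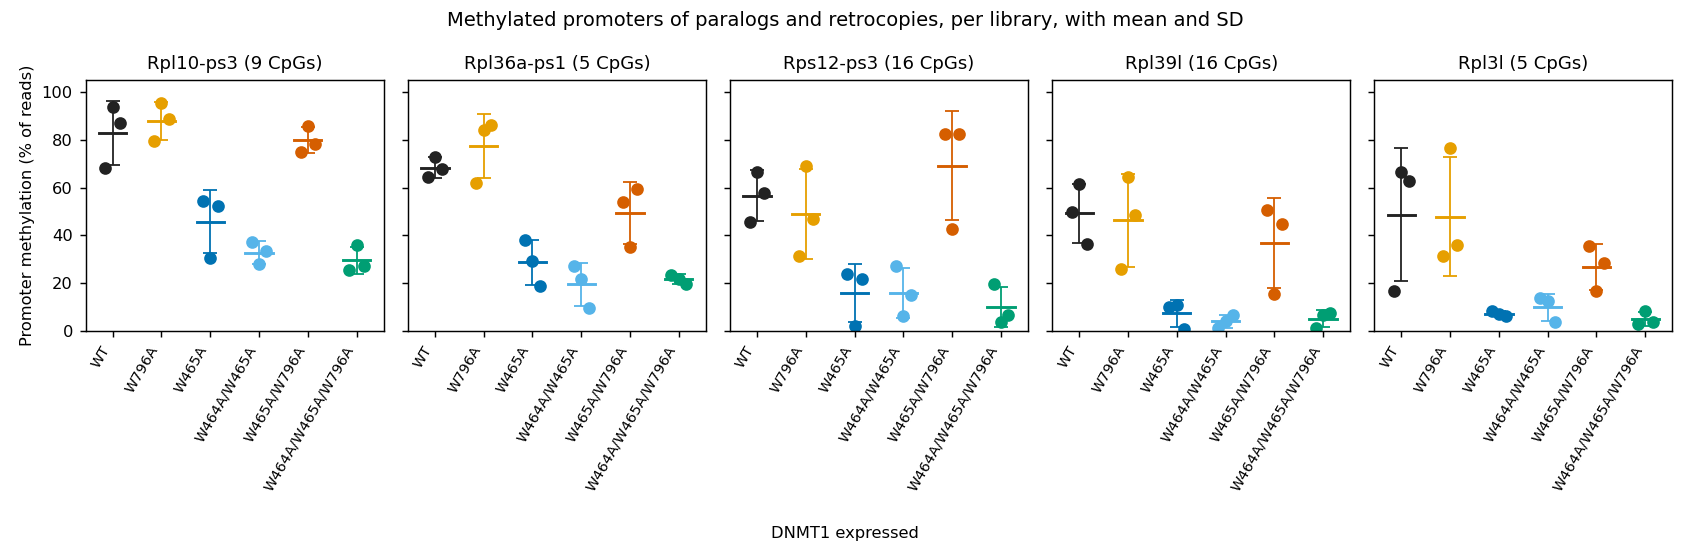
Promoter methylation (percent of reads, vertical axis) of the 5 methylated paralog or retrocopy promoters that could be tested, by the DNMT1 expressed. Points are libraries, long lines are means and error bars are SD (n = 3). In each panel W465A, W464A/W465A and W464A/W465A/W796A lie below WT, as at Rpl39l with 7.48%, 4.16% and 5.30% against 49.3%, while W465A/W796A lies above W465A on average.

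In the test of methylated against all reads, 8 of 78 promoters were lower in W465A than in WT, against 38.0% of all 16049 promoters tested. They were those 5 and others at levels under 1%, among them Rpl22l1 and Rpl26. In W464A/W465A 7 of 78 fell (40.5% of all), the same 5 with Rpl18 and Rpl8, and in W464A/W465A/W796A 6 of 78 fell (42.0% of all), the 5 with Rpl18. Rpl39l had the largest difference in W465A, from 49.3% ± 12.4 to 7.48% ± 5.48 (adjusted p = 0.000355), and Rpl10-ps3 in W464A/W465A/W796A, from 82.8% ± 13.3 to 29.7% ± 5.63 (adjusted p = 2.97e-05). The low promoters moved by fractions of a point: Rpl26, from 0.662%, 1.22% and 0.483% in WT to 0.224%, 0.404% and 0.255% in W465A, had adjusted p = 0.0304, which was 0.431 without WT replicate 2, and 0.0863 and 0.116 without W465A replicate 1 or 3. Without WT replicate 2 the counts were 5 in W465A and 4 in W464A/W465A, and the shares of all promoters without that library are not given here. When promoters reached 1000 bp either side, 29, 31 and 33 of 79 fell in the 3 mutants, where 68.3%, 70.1% and 73.0% of all such promoters fell. When each CpG needed 5 reads in every library, 2, 1 and 1 of 69 fell, against 21.3%, 23.1% and 24.7% of all.

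No member promoter was called in W796A against WT (0.667% of all called higher, 0.0374% lower) or in W465A/W796A against WT (7.94% lower). At an unadjusted p under 0.05 there were 5 and 4, and limma and edgeR also called 0. Rpl39l stood at 46.3% ± 19.3 in W796A and 36.9% ± 18.8 in W465A/W796A, both overlapping WT. No promoter was called lower in W464A/W465A than in W465A by the logistic model (0.00% of all). Of the members, 6 had a raw p under 0.05 there, and limma called 0 of them and edgeR 0, against 1 and 5 of all promoters. In W465A/W796A against W465A, 1 of 78 was higher (0.997% of all), Rps12-ps3. Departure from additivity, whether the W465A/W796A level differs on the logit scale from the 2 single effects added, was called in 0 of 78 (0.0249% of all), where 4 had a raw p under 0.05 and neither limma (0) nor edgeR (0) called any member. Shares of all promoters at a raw p under 0.05 are not given here, so these raw counts describe the members only.

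**Figure D2:**
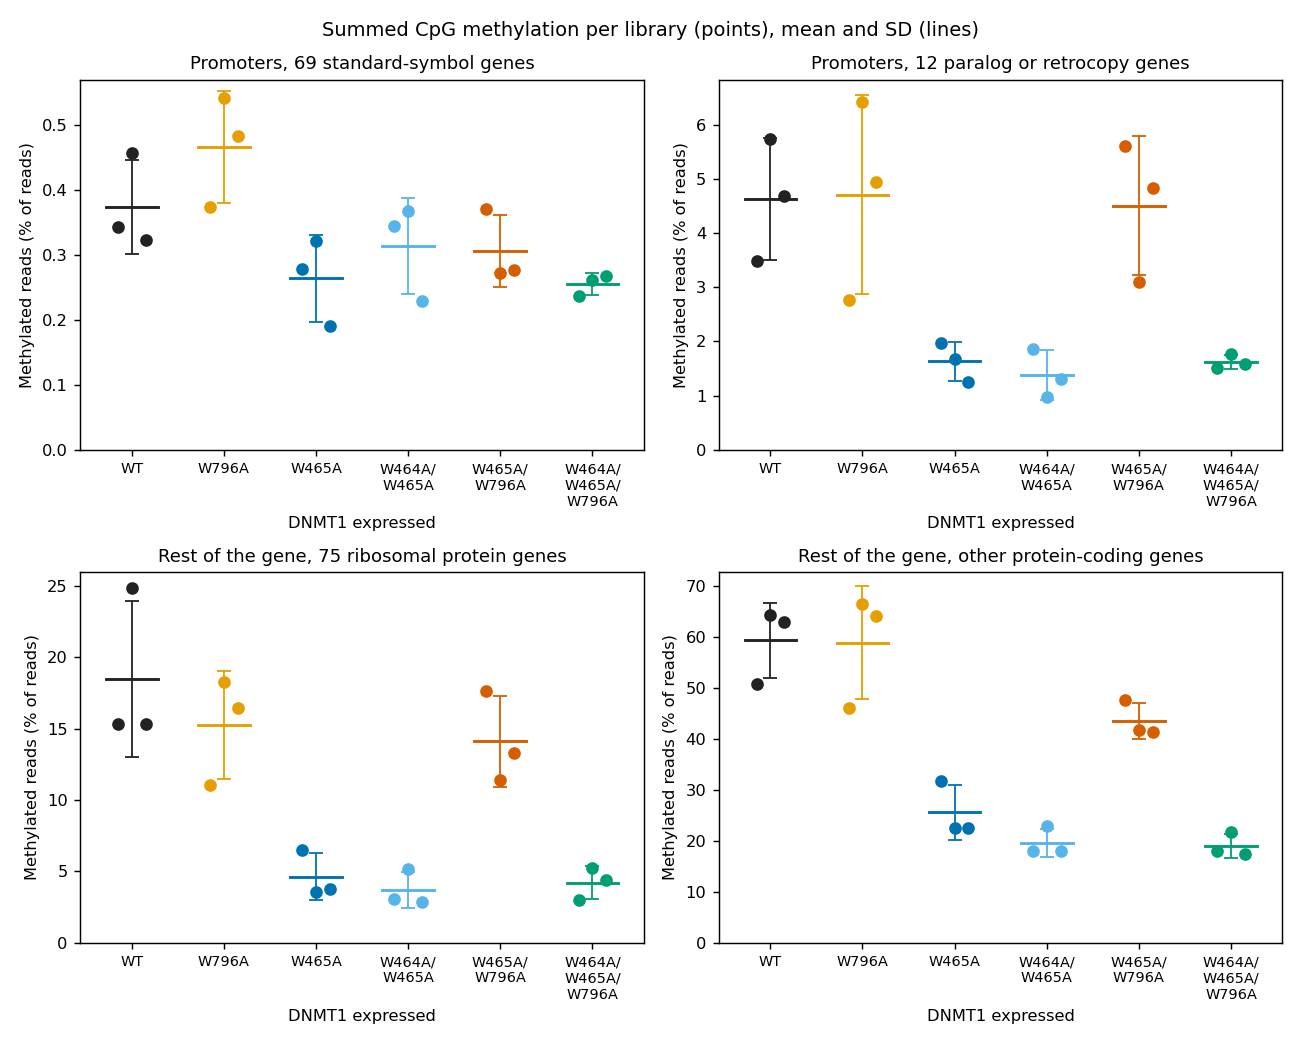
Methylated reads as a percentage of all reads (vertical axes, each from 0) for the promoters of 69 standard genes, the promoters of 12 paralogs or retrocopies, the bodies of 75 ribosomal protein genes and the bodies of other protein-coding genes. Points are libraries and lines are means with SD (n = 3). The standard promoters reach at most 0.543% in any library, and the member bodies at most 24.8%, where other genes have a WT mean of 59.4%.

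The bodies of ribosomal protein genes were weakly methylated in WT, and most of what they had was absent with W465A. The summed body level was 15.3%, 24.8% and 15.4% in WT, a mean of 18.5% ± 5.48, and 11.0%, 18.3% and 16.5% in W796A. It was 6.5%, 3.58% and 3.77% in W465A, 3.05%, 5.15% and 2.86% in W464A/W465A, and 3.02%, 5.25% and 4.36% in W464A/W465A/W796A. These 9 libraries were all below the 6 of WT and W796A. In W465A/W796A the level was 17.7%, 11.4% and 13.3%, within the range of W796A and partly within that of WT. W465A kept 24.9% of the WT mean, against 43.1% in other genes, and W465A/W796A kept 76.3%, against 73.4%. These shares were not tested against each other.

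The WT libraries did not order alike in members and in other genes. WT replicate 3 was at 63.0% over the bodies of other genes, next to replicate 2 at 64.3%, but at 15.4% over the members, next to replicate 1. WT replicate 2 had the highest level of the 3 in 59 of 71 member bodies. Its depth, 138978763 calls, was also the highest, and the part of depth in this was not tested.

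Within the family, body levels spanned the whole range from 0% to 73.6% in WT. Of 71 tested genes, 33 were under 10%, 22 between 10% and 30%, 12 between 30% and 50%, and 4 at or above 50% (Rpl4, Rpl7l1, Rpl39l, Rpl3l). The lowest were Rps12, a small subunit protein, with no methylated read in WT over 7 CpGs, and Rps9 at 0.133%. The median was 11.2%, against 68.0% for all 18942 bodies tested, of which 96.6% had at least 10% in WT.

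**Figure D3:**
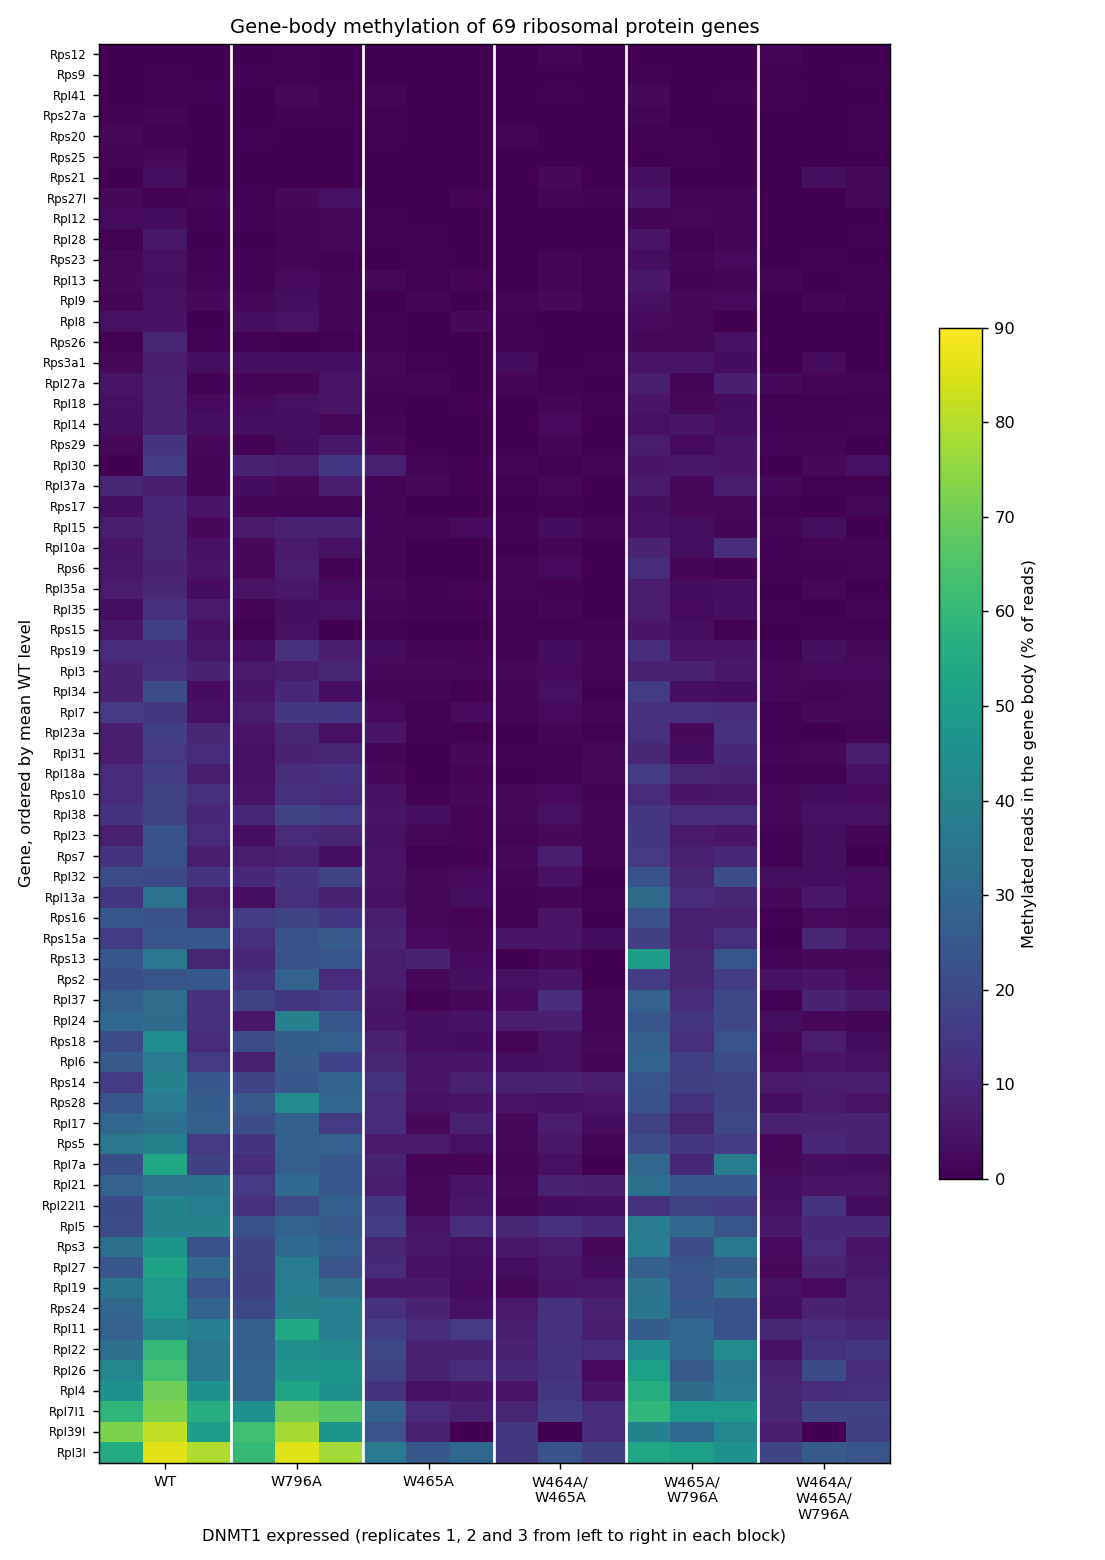
Gene-body methylation (colour, percent of reads) of 69 of the 71 tested ribosomal protein genes (rows, ordered by mean WT level) in 18 libraries (columns, 3 per DNMT1 form). Rows run from Rps12 at 0% to Rpl3l at 73.6% in WT, and the columns of W465A, W464A/W465A and W464A/W465A/W796A are lower than those of WT in nearly every row.

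Body methylation of the members was found far from the start. In WT, member CpGs had 0.424% ± 0.0422 at 250 to 500 bp from the start, 1.14% ± 0.212 at 500 to 1000 bp, 8.23% ± 4.78 at 1000 to 1500 bp, 30.6% ± 13.9 at 2000 to 3000 bp and 55.7% ± 13.2 at 3000 to 5000 bp. Other genes had 3.46% ± 0.847, 8.29% ± 1.99, 23.4% ± 4.69, 50.9% ± 6.87 and 57.0% ± 7.21 in the same bins. Each WT library was lower in the members than in other genes up to 3000 bp, and from 3000 bp on the ranges overlapped. Beyond 5000 bp, where 13 members had CpGs, the members were at 67.8% ± 9.15 and other genes at 62.0% ± 7.62. Upstream, at 1000 to 2000 bp before the start, they were at 37.5% ± 8.33 and 36.9% ± 6.23.

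The share of the WT level that was kept also differed between distance bins. The member bins at 2000 to 3000, 3000 to 5000 and 5000 to 10000 bp held CpGs of 48, 36 and 13 genes. The genes thus differ between bins as well as the distance, and these were not told apart. In W465A the members kept 12.6% of it at 2000 to 3000 bp, 24.5% at 3000 to 5000 bp and 35.6% at 5000 to 10000 bp, while other genes kept 37.5%, 39.3% and 40.9%. In W465A/W796A the members kept 78.2%, 86.8% and 78.8% and other genes 71.4%, 73.0% and 74.2%. At 2000 to 3000 bp the W465A libraries of the members were at 7.09%, 1.97% and 2.48%, against 27.8%, 45.7% and 18.3% in WT and 34.4%, 15.3% and 22.1% in W465A/W796A. WT and W465A/W796A overlapped, with 1 library of W465A/W796A below all of WT and 1 of WT above all of W465A/W796A, and both groups lay above W465A.

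**Figure D4:**
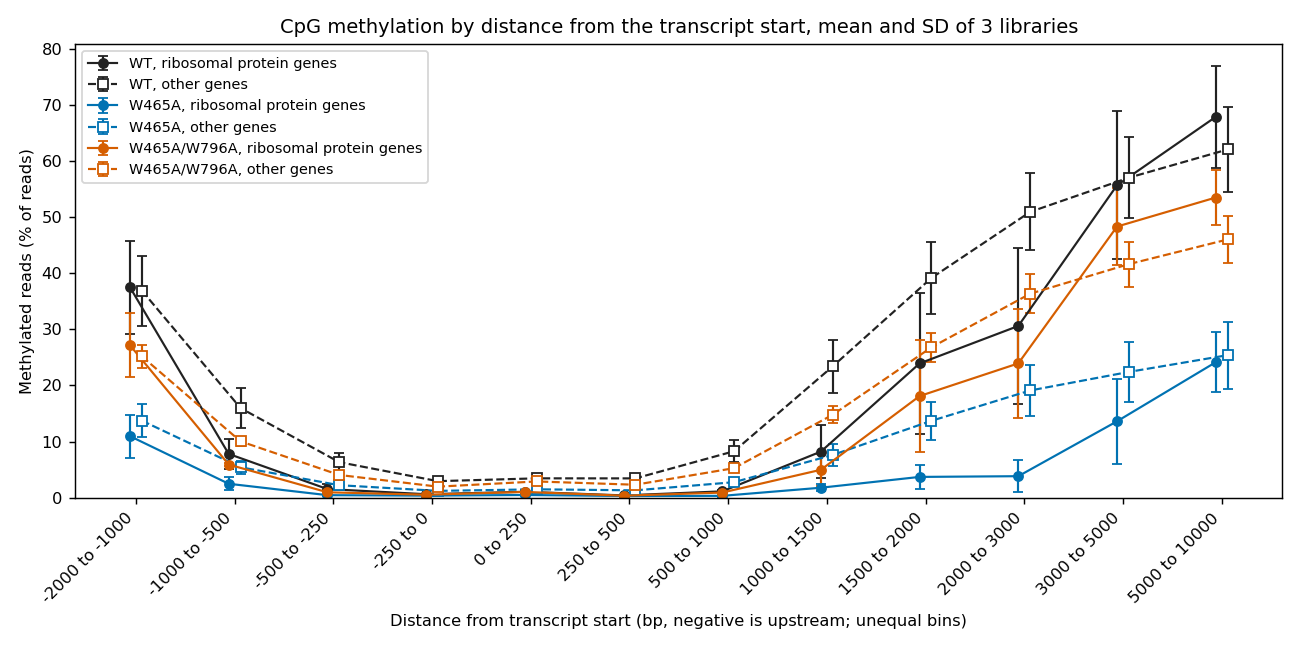
Methylated reads as a percentage of all reads (vertical axis) by distance from the transcript start (horizontal axis, unequal bins in bp), for ribosomal protein genes (filled circles, solid) and other protein-coding genes (open squares, dashed) in WT, W465A and W465A/W796A, as mean and SD of 3 libraries. The member curves stay near 0 out to 1000 bp, where WT has 1.14%, and in WT and W465A/W796A come level with other genes by 3000 to 5000 bp.

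Against WT, 54 of 71 member bodies fell in W465A, where 97.9% of all 18942 bodies fell. In W464A/W465A 55 fell (98.2% of all) and in W464A/W465A/W796A 58 (98.3% of all). None rose. The genes that were not called in W465A were those with low levels in WT, which ran from 0% to 6.30%, while the called genes had 2.02% to 73.6%. With at least 10 reads per CpG in every library, 21 bodies could be tested and 6 fell in each of the 3 mutants. The share of all bodies that fell under this minimum is not given here, so the count describes the members only. The median difference over the 71 members was -9.61 points in W465A, against -38.97 points over all bodies.

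Rpl4, which codes for a large subunit protein lining the exit tunnel, lies at chr9:64173375-64178666 and showed the pattern at a standard gene. Over 36 CpGs its body had 46.1%, 70.0% and 46.2% in WT, 13.9%, 4.37% and 5.35% in W465A, and 55.9%, 30.9% and 36.6% in W465A/W796A. The W465A libraries were all below the others. The fall in W465A had adjusted p = 5.85e-07, and the difference between W465A/W796A and W465A adjusted p = 0.00378. Rpl7l1, at chr17:46773907-46782672, had 73 usable CpGs in its body and an unmethylated promoter. Its body was at 59.1%, 72.2% and 56% in WT, 26.8%, 11.0% and 7.98% in W465A and 59.1%, 49.2% and 48.7% in W465A/W796A, so the last overlapped WT and lay above W465A (adjusted p = 0.00378).

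Rpl3l and Rpl39l, whose promoters were methylated too, had the most methylated bodies. Rpl3l had 55.3%, 86.1% and 79.4% in WT, 37.3%, 24.4% and 30.1% in W465A and 14.6%, 22.6% and 17.0% in W464A/W465A. W465A kept 41.6% of the WT level there, the highest share among the 38 members with at least 10% in WT. Rpl39l had only 4 usable body CpGs, at 72.2%, 81.5% and 50% in WT, and at 23.1%, 8.33% and 0% in W465A. In W464A/W465A, where Rpl3l had 18.1%, Rpl39l was at 8.73% and Rpl4 at 8.01%.

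The bodies with the most usable CpGs showed the same order of groups at low and middle levels. Rps14, a small subunit protein gene, had 191 CpGs and 1436 to 3767 reads per library, at 15.8%, 39.7% and 24.7% in WT, 13.1%, 5.48% and 7.77% in W465A and 23.3%, 17.1% and 18.4% in W465A/W796A. Rpl3, a large subunit protein near the catalytic centre, had 104 CpGs at 8.33%, 12.6% and 8.96% in WT, 2.30%, 2.42% and 1.80% in W465A and 8.43%, 8.96% and 6.28% in W465A/W796A. In both, most of these CpGs lie upstream of the start used, 158 in Rps14 and 83 in Rpl3. Downstream of it, Rps14 had 19.2% ± 9.97 in WT and 2.66% ± 1.89 in W465A over 33 CpGs, and Rpl3 had 27.1% ± 5.44 and 3.15% ± 1.73 over 21. Over the whole body, both genes fell in W465A (adjusted p = 6.35e-05 and 0.000690) and were higher in W465A/W796A than in W465A (adjusted p = 0.0140 and 0.0148). Rpl11, which also binds the p53 regulator MDM2, had 68 CpGs at 36.2% ± 7.07 in WT, 14.4% ± 2.42 in W465A and 9.26% ± 2.82 in W464A/W465A. Rpl22 had 64 CpGs at 42.9% ± 14.9 in WT, 12.5% ± 6.12 in W465A and 38.8% ± 7.81 in W465A/W796A, and Rpl18 had 54 CpGs at only 4.85% ± 2.79, 0.579% ± 0.238 and 3.52% ± 1.76.

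No member body was called in W796A against WT (0.00% of all by the logistic model, with 12 members at a raw p under 0.05; limma called 0 and edgeR 0). The share of all bodies at that raw p is not given here, so the count of 12 describes the members only. The member mean was lower in 58 of 71 genes, with a median difference of -2.52 points, while the median over all bodies was 0.08 points. The summed level differed by -3.25 points, less than the SD within either group, and without WT replicate 2 by -0.0809 points. W464A/W465A was likewise not called against W465A in any body (0.00% of all, and 0 members at a raw p under 0.05; limma called 0 and edgeR 0), although the summed levels of other genes were 19.6% ± 2.80 and 25.6% ± 5.41.

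Adding W796A to W465A went with higher body levels. Against W465A, 42 of 71 bodies were higher in W465A/W796A (81.8% of all), none was lower, and the median difference was 6.25 points against 19.94 over all bodies. The count was 11 without W465A/W796A replicate 1, 25 without W465A replicate 2 and 20 without W465A replicate 3. Shares of all bodies are not given for these or the following counts with a library left out. Against WT, 4 of 71 were lower in W465A/W796A (76.3% of all): Rpl22l1, Rpl39l, Rpl3l and Rpl17, of whose 19 body CpGs 7 lie upstream of the start used. Rpl39l fell from 67.9% ± 16.2 to 37.4% ± 5.27 (adjusted p = 0.0321) and Rpl3l from 73.6% ± 16.2 to 50.3% ± 4.26 (adjusted p = 0.0106). Rpl22l1, which can stand in for Rpl22 in the ribosome, went from 20.3%, 40.2% and 37.7% to 12.8%, 17.8% and 16.3%. No member was lower than in WT when WT replicate 2 was left out, 8 were without WT replicate 3 or W465A/W796A replicate 1, 11 without WT replicate 1 or W796A replicate 1, 9 without W796A replicate 2, and 2 without either of the other W465A/W796A libraries.

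**Figure D5:**
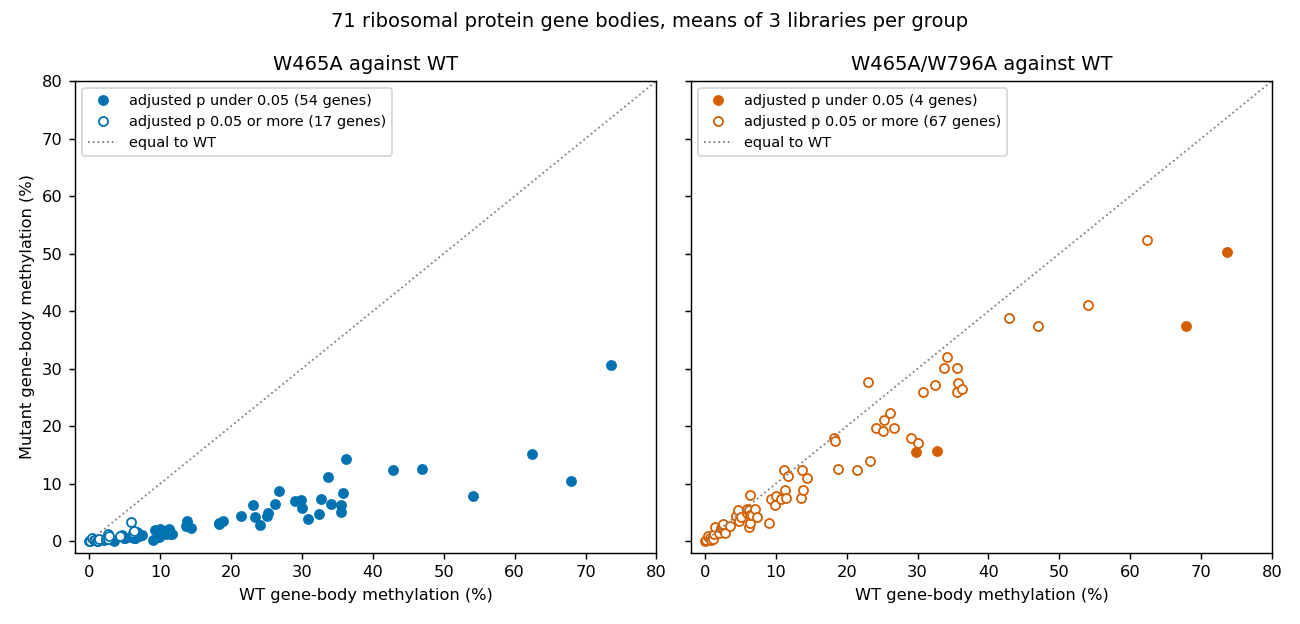
Gene-body methylation of the 71 ribosomal protein genes in W465A (left) and W465A/W796A (right) on the vertical axis against WT on the horizontal axis, as group means in percent. Filled points passed the test against WT and the dotted line marks equality. In W465A all genes above 10% in WT lie far below the line, and in W465A/W796A most lie nearer to it, with 4 called.

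Departure from additivity was called in 39 of 71 bodies, all towards more methylation in W465A/W796A (40.0% of all bodies). In summed levels the departure was 12.8 points with a standard error of 4.36. By the summed levels given above, the bodies of other genes departed in the same direction and by more points. Among the called genes whose W465A/W796A and W465A libraries did not overlap, the departure on the logit scale was among the largest at Rps26, a small subunit protein gene with little methylation. Rps26, at chr10:128624534-128626747, had 0.676%, 9.38% and 0.529% in WT, 0.448%, 0.323% and 0.529% in W796A, 0.402%, 0% and 0% in W465A, and 2.06%, 1.84% and 4.24% in W465A/W796A (adjusted p = 0.0338). Its WT mean rests on 1 library. The count of 39 went to 0 when WT replicate 2, W465A replicate 2, W465A replicate 3 or W465A/W796A replicate 1 was left out, and limma called 8 (0.570% of all bodies) and edgeR 47 (17.9% of all). The share of all bodies called with those libraries left out is not given here.

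Exons and introns of the members had the same order of groups. The exon part of the bodies had 16.5% ± 5.32 in WT and 3.47% ± 1.32 in W465A, and the intron part 21% ± 6.26 and 6.12% ± 2.08. In other genes these were 46.0% ± 5.82 and 19.3% ± 4.36 for exons and 64% ± 7.91 and 27.8% ± 5.82 for introns. Repeat-masked CpGs within member bodies, 196 in 49 genes, were at 40.6% ± 7.50 in WT, 11.6% ± 4.04 in W465A and 30.3% ± 6.97 in W465A/W796A, and the other 1968 at 16.6% ± 5.36, 4.07% ± 1.42 and 12.8% ± 2.84. Among genes with a standard symbol, large and small subunit bodies had 16.5% ± 5.36 and 15.5% ± 5.52 in WT and 3.61% ± 1.32 and 3.82% ± 1.87 in W465A, so the subunits overlapped.

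Other genes of the translation machinery gave the context. The 7 further cytosolic ribosome proteins without an Rpl or Rps number, such as the stalk protein Rplp0 and the scaffold Rack1, had body levels of 18.7% ± 7.92 in WT, 3.71% ± 2.84 in W465A and 15.1% ± 2.03 in W465A/W796A, and 5 of 7 fell in W465A. The 12 genes of a translation factor list, among them Eef1a1 and Eef2, had 39.1% ± 6.37, 13.1% ± 5.09 and 29.5% ± 3.30, and 11 of 12 fell in W465A. The 21 ribosome assembly factors, such as Npm1 and Fbl, had 53.3% ± 7.55, 20.6% ± 6.59 and 41.0% ± 3.93, with 20 of 21 lower in W465A. The 78 mitochondrial ribosomal protein genes, whose products sit in a different ribosome, had 59.0% ± 6.33, 23.5% ± 6.76 and 45.4% ± 4.91, and 75 of 78 fell. Against WT in W465A/W796A, 51 of these 78 were lower, 9 of the 21, 4 of the 12 and 0 of the 7. Of all bodies tested, 97.9% fell in W465A and 76.3% in W465A/W796A. Promoters of all these lists were low, between 0.414% ± 0.0466 for the translation factors and 1.03% ± 0.444 for the assembly factors in WT. In W465A 11 of 78 mitochondrial ribosomal promoters fell, 3 of the 20 assembly factor promoters tested, 1 of 12 and 1 of 7. Of all promoters tested, 38.0% fell in W465A.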

How the data were processed

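The authors deposited 1 table that gives, for each CpG and library, the count of methylated calls and the count of all calls. Per the submitters' processing notes, the tools were cutadapt 1.2.1, Bismark 0.18.1 and Bowtie 1.2, with the mm10 build. Whether PCR duplicates were removed is not given in the sources used here. The table lists 21867550 CpGs, of which 6143659 had at least 1 read in all 18 libraries, and all 20383623 autosomal positions checked are CG in GRCm38. Totals per library ran from 59776439 to 138978763 calls.

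Counts were summed per gene and library. Promoters and bodies with at least 3 usable CpGs were tested over all autosomal protein-coding genes with a logistic model of methylated against all reads over the 6 groups. Its overdispersion was moderated across genes with limma 3.58.1 (R 4.3.3) and was not allowed below 1, with 12 residual degrees of freedom. P-values are two-sided F tests with Benjamini-Hochberg adjustment over all genes tested, and a gene is called at an adjusted p under 0.05. Differences between members and other genes are descriptions. Alternatives were limma on log2 ratios of the deposited counts with 0.5 added, edgeR 4.0.16, other windows, starts and read minimums, leaving out each library, and the replicate number as a block. The scripts (Python 3.11.15, numpy 2.4.6, pandas 2.3.3) were tested on simulated data. There, 200 genes were lowered in W465A against WT and the other genes were left unchanged. With a change of 5 points, 0 of the 200 were recovered in promoters and 0 in bodies. With 20 points, 19 were recovered in promoters and 51 in bodies. A count of 0 called thus does not show that levels were equal. The 200 were drawn from genes with enough WT methylation for such a change, and far more genes fell in W465A in the data. These rates are therefore not those of the members, most of whose promoters were nearly unmethylated in WT.

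Replicate numbers are shared by all groups, and no label says that a number marks a shared day or line. Deviations of same-numbered libraries correlated at over 0.1 in all 3 pairs for WT with W796A only (0.587, 0.496 and 0.155 in promoters, 0.282, 0.224 and 0.141 in bodies).

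The members and all gene lists were chosen with earlier results of these data known. Genes were named by rule: the 6 promoters with the highest mean level, the 6 bodies with the most CpGs, the 3 highest and 3 lowest shares of WT kept in W464A/W465A among bodies with at least 50% in WT, and for each contrast the 2 called genes with the largest difference whose libraries do not overlap. Any other gene was named after its values were seen. Results of a few members are not reported here.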

Additional observations from a re-analysis of the deposited data

Results flagged for a closer look

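In 39 member bodies the level in W465A/W796A differed from the single effects of W465A and W796A added on the logit scale, by the test of that difference itself (40.0% of all bodies tested). The count was 0 without WT replicate 2, W465A replicate 2, W465A replicate 3 or W465A/W796A replicate 1. The share of all bodies called without them is not given here.

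The difference had adjusted p = 0.0338 at the body of Rps26, whose WT levels were 0.676%, 9.38% and 0.529%. Without WT replicate 2 the adjusted p was 0.377. It was 0.0783 and 0.102 without W465A replicate 2 or 3, and 0.105 and 0.0712 without W465A/W796A replicate 1 or 3.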

How the results depend on the processing

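Of the values that answer a comparison, 524 kept their direction and size under the alternatives, 104 moved and 7 reversed. The cause of these changes was not tested. Counts below are members called and differences are of summed levels, in points. Except where given here or above, shares of all genes called under these settings are not given, so a count without a share describes the members only. Unless another comparison is named, they are in the order W465A, W464A/W465A and W464A/W465A/W796A against WT. A minimum difference of 10 points left 5 of 78 promoters in W465A (22.9% of all), and 26 bodies higher in W465A/W796A than in W465A.

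With 5 reads per CpG and library, promoter counts were 2, 1 and 1, with differences of -0.202, -0.173 and -0.220. Against W465A, W465A/W796A had 0 promoters (0.458% of all) and differences of 0.121 in promoters and 6.96 in bodies. Against WT it had 2 bodies, the departure 25, and the body differences of W464A/W465A and W464A/W465A/W796A were -10.6 and -10.1. With 10 reads, promoter counts were 1, 1 and 2 (-0.215, -0.192, -0.240) and body counts 6, 6 and 6 (-4.02, -4.22, -4.24). W465A/W796A had 0 bodies against WT, and 0 promoters (0.143) and 3 bodies (2.77) against W465A, with 3 departures.

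With promoters of 1000 bp either side, promoter counts were 29, 31 and 33 (-0.773, -0.796, -0.808) and body differences -23.1, -24.8 and -24.0. W465A/W796A had 1 promoter (23.2% of all) and 7 bodies against WT. Against W465A it had 2 promoters (2.92% of all), with differences of 0.530 in promoters and 15.9 in bodies. With every protein-coding start, promoter counts were 15, 15 and 15 (-0.778, -0.816, -0.801) and body differences -18.1, -19.2 and -18.7. W465A/W796A had 7 bodies against WT (promoters -0.284), 4 promoters against W465A (0.494, bodies 12.9) and 1 promoter departure.

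Counting each CpG once gave promoter differences of -1.02, -1.08 and -1.05, -0.274 for W465A/W796A and 0.748 for it against W465A, and -18.3 for W464A/W465A/W796A bodies. Standard symbols alone gave -0.110, -0.0608, -0.119 and, for W465A/W796A against W465A, 0.0429. The promoter difference of W464A/W465A against W465A, 0.0121, reversed to -0.0235 (1000 bp), -0.0380 (every start), -0.0624 (each CpG once), -0.0387 (without W465A replicate 3) and -0.0249 (without W464A/W465A replicate 1), and that in bodies to 0.0162 without W465A replicate 1. The promoter difference of W796A reversed to -0.0366 without W796A replicate 2. By edgeR, 2 promoters were higher in W465A/W796A than in W465A, and by limma there were 2 bodies lower in W465A/W796A and 8 departures.

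Leaving out 1 library at a time gave promoter counts of 5 to 9, 4 to 7 and 5 to 8, 0 to 1 for W465A/W796A, 0 to 4 for it against W465A and 0 to 3 departures. Body counts were 37 to 59, 40 to 57 and 39 to 60, 0 to 11 for W465A/W796A, 11 to 50 for it against W465A and 0 to 52 departures. The promoter differences of W796A ran from -0.0366 to 0.258, those of W464A/W465A against W465A from -0.0387 to 0.0498 in promoters and from -1.66 to 0.0162 in bodies.

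With the replicate block, the promoter counts were 7, 6 and 5, and the body counts 53, 54 and 54, with 4 bodies lower in W465A/W796A, 43 higher than in W465A and 34 departures. No count moved by over 1.5 times. An alternative chosen after the data were seen, the block in the WT and W796A libraries alone, called 0 member promoters and 0 member bodies. Another such alternative, bodies downstream of the start only, moved no summed body difference by over 1 SD.

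Depth limits single CpGs more than genes: a usable CpG needed only 1 read in each library. Apart from this, none of the 135 CpGs inside MspI sites of the member promoter windows was usable, against 62.8% of the other 1076. Nothing here separates lines from clones of 1 line, and body differences were measured in a family of short genes.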
